A study of Rattus norvegicus with 119 samples.

Results

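The RT1 complex is the major histocompatibility complex of the rat, and the genes described here are its class I and class II genes together with the genes that supply and load their peptides. Members were the probe sets that carried exactly 1 gene symbol, where that symbol began with RT1- or was Cd74, B2m, Tap1, Tap2, Tapbp, Psmb8, Psmb9 or Ciita. The rule found 45 probe sets for 43 symbols among 29214 probe sets, of which 15310 carried exactly 1 symbol. A further 4 RT1 probe sets carried several symbols and were not members. Hippocampal RNA of 40 Fischer, 40 Long Evans and 39 Sprague Dawley rats was measured on Affymetrix Rat Gene 1.0 ST arrays, with 1 array per animal. Both sexes of each strain ate control chow or chow that contained lead acetate (250 or 750 ppm). Dams of the perinatal groups were given lead from 10 days before breeding until their pups were weaned onto control food. Postnatal groups had lead from birth to postnatal day 45 and control food thereafter, and tissue of every group was taken on postnatal day 55. Each of the 30 groups held 4 animals, but for 3 Sprague Dawley control males. As background, Fischer rats are inbred, whereas Long Evans and Sprague Dawley rats are outbred, so that animals of the latter strains can carry different RT1 haplotypes.

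As general background, class I molecules pair a polymorphic heavy chain with beta-2-microglobulin (B2m) and show peptides from the cytosol to CD8 T cells. Those peptides are cut by the immunoproteasome, which contains Psmb8 and Psmb9, pumped into the endoplasmic reticulum by the transporter Tap1 and Tap2, and loaded with the help of tapasin (Tapbp). Class II molecules are alpha and beta chain pairs that travel with the invariant chain Cd74, exchange it for peptide with the help of the DM molecule, and are switched on by the transactivator Ciita. In the healthy brain, class II genes and Cd74 are read mainly in microglia, border macrophages and other immune cells, while class I genes are read more widely, neurons included.

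By role, the members were 11 probe sets of the class I CE genes, 8 of the class I M genes, 9 of the class I N, O, S and T genes, and B2m. There were 5 for peptide supply to class I (Psmb8, Psmb9, Tap1, Tap2, Tapbp), 5 for class II chains (RT1-Ba, RT1-Bb, RT1-Da, RT1-Db1, RT1-Ha), 4 for class II peptide loading (RT1-DMa, RT1-DMb, RT1-DOa, RT1-DOb), and 1 each for Cd74 and Ciita. By gene identifier, all 45 matched the GRCr8 annotation, and 42 lay on chromosome 20, all but B2m, Cd74 and Ciita. Of the 45, 27 had a mean level above the 40th percentile of all probe sets. Values are deposited log2 intensities, in which a difference of 1 is a doubling of signal. Levels of different probe sets were not compared with each other. Class I RT1 genes are close paralogs that can share probes' targets, RT1-N2 and RT1-N3 shared a transcript accession in the annotation, and RNA level and sequence differences under the probes cannot be told apart between strains or haplotypes.

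The stretches just upstream of 4 members are shown because results that follow turn on these genes. RT1-Da and RT1-Ba are class II alpha chains whose levels followed Cd74, and RT1-CE16 and RT1-N2 are class I genes whose levels moved together in Long Evans animals. The 150 bases before the start of each gene are from RefSeq, assembly GRCr8, which is the genome of another strain, Brown Norway. They lie at chr20:4515265-4515414 (plus strand), chr20:4576907-4577056 (plus strand), chr20:3265444-3265593 (minus strand) and chr20:2646180-2646329 (plus strand), in the order printed. Capitals mark an exact match on either strand to the X1 box (CTAGCAAC), X2 box (TGATGACG), Y box (CTGATTGG) or enhancer A motif, which are elements known from histocompatibility promoters.
RT1-Da: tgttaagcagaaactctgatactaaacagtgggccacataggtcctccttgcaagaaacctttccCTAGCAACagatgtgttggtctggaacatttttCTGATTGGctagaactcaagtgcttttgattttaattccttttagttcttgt
RT1-Ba: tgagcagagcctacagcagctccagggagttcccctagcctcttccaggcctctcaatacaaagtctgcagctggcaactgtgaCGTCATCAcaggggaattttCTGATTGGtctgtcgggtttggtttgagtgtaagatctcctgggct
RT1-CE16: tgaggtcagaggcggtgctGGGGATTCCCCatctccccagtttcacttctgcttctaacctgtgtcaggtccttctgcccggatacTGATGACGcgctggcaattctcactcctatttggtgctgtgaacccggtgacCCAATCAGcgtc
RT1-N2: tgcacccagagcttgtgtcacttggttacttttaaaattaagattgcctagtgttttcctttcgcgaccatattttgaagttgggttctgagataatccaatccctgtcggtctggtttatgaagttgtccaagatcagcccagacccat
RT1-Da held the X1 box and the Y box, and RT1-Ba the X2 box, on the reverse strand, and the Y box. RT1-CE16 held enhancer A, the X2 box and, on the reverse strand, the Y box, while these letters were not found in the window of RT1-N2. In the 250 bases before the start, the Y box was found in 13 of 38 member genes with a sequence, 6 of 9 class II and 5 of 9 CE genes among them, and in 3.19% of all 33469 promoters. Enhancer A was found in 5 of 9 CE genes (RT1-CE4, RT1-CE10, RT1-CE11, RT1-CE13 and RT1-CE16) and in 0.0657% of all promoters. The X1 box was found in RT1-Da, RT1-Db1 and RT1-DOb (1.06% of all promoters), and the X2 box in RT1-Ba, RT1-CE16 and RT1-M3-1 (0.61%). The interferon-stimulated response element was found in 7 member genes, B2m, Tap1, Tap2, Tapbp, RT1-N3, RT1-S2 and RT1-S3, and in 3.41% of all promoters. A match is a description of letters and was not tested as a binding site.

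Array medians ranged from 7.36 to 7.57. In all, 8 arrays lay against their sex label, 3 among the Long Evans controls and 5 in Sprague Dawley groups, and the counts, the Sprague Dawley lead values and the correlations are also given without them. The labels number the animals, and the arrays of the 2 lowest and the 2 highest numbers of each group (lower and upper label numbers in what follows) differed widely in Fischer. There limma called 60.9% of all probe sets and 30 of 45 members between them, against 0.0993% and 0 members in Long Evans and 18.9% and 4 members in Sprague Dawley. Each group held both sets. What the numbers stand for is not given in the sources used here, and the fits within the sets were chosen after the data were seen. Markers of hippocampal neurons were high in every array (array means from 10.8 to 11.0 over 9 probe sets), whereas 10 choroid plexus probe sets ranged from 6.68 to 10.7 between arrays. Microglial markers (12 probe sets) had array means of 8.59 to 8.98, and lymphocyte and dendritic cell markers (9 probe sets) had means of 6.13 to 6.53. The labels name no litters, so p-values measure the spread between animals taken as independent.

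Strain differences were called for more of these genes than any difference after lead. In control animals, RT1-N2 and RT1-M1-2 were lowest in Fischer, RT1-M6-2 was lowest in Sprague Dawley, Cd74 was highest in Sprague Dawley, and Psmb9 and RT1-S3 were lowest in Long Evans. Of the 45 probe sets, 16 differed between Long Evans and Fischer controls (9 higher and 7 lower in Long Evans), or 35.6%, against a background of 25.1% of all probe sets. Between Sprague Dawley and Fischer, 13 differed (10 higher and 3 lower in Sprague Dawley), or 28.9%, against 10.5% of all. Between Sprague Dawley and Long Evans, 13 differed (6 higher and 7 lower in Sprague Dawley), or 28.9%, against 24.5%. The median size of the difference was 0.12, 0.13 and 0.13 log2 in the members and 0.10, 0.08 and 0.11 over all probe sets, and no test of the list was made. Calls are limma results at an adjusted p under 0.05 (Benjamini-Hochberg, over the whole array). Without the 8 arrays that lay against their sex label, the counts were 13, 12 and 11.

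**Figure D1:**
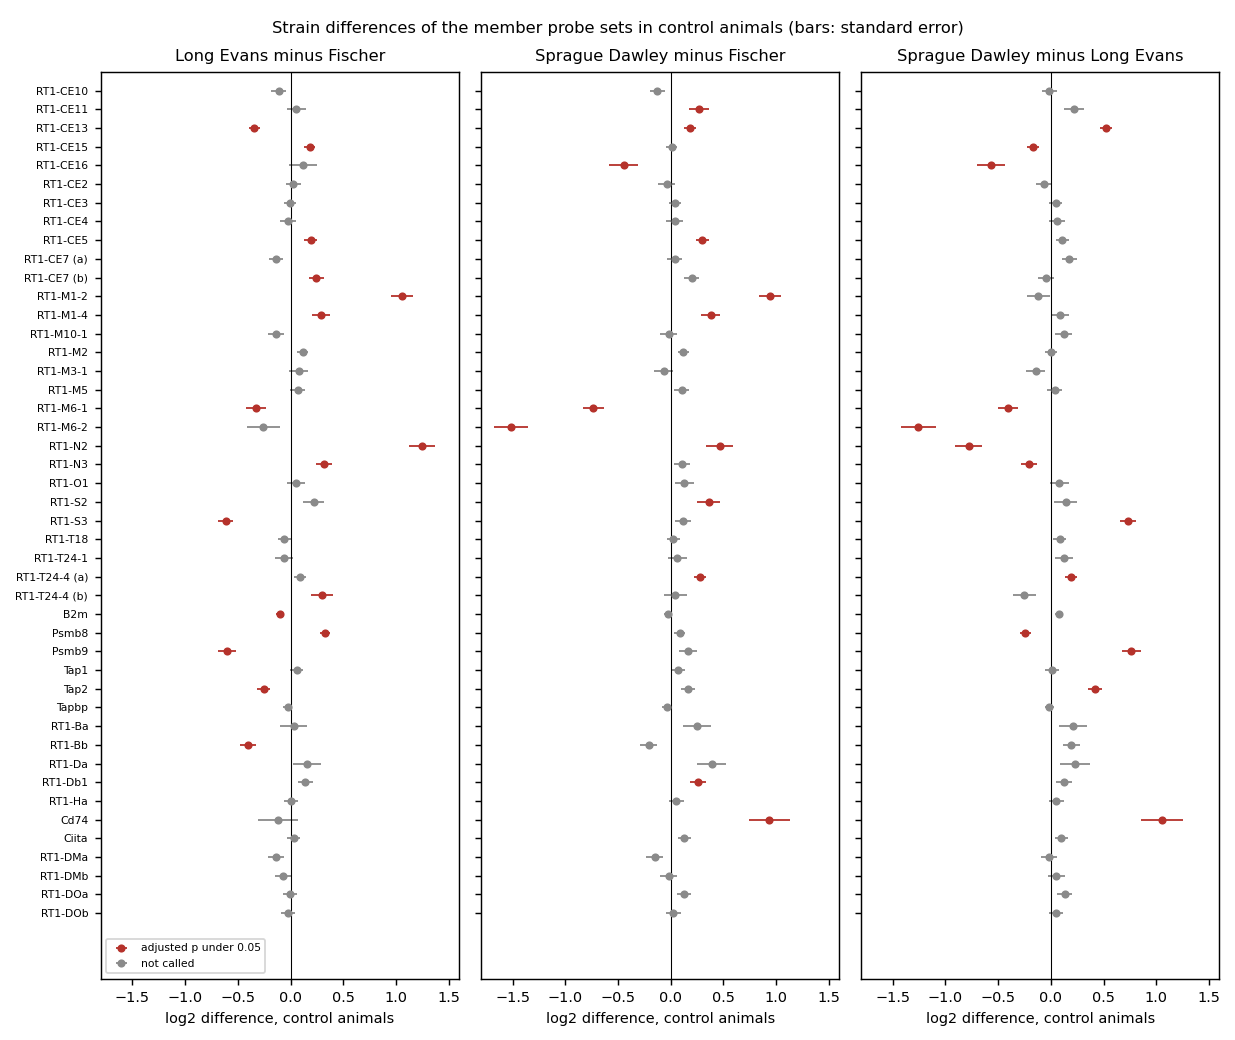
Differences in level between control animals of the 3 strains for the 45 probe sets, in log2 units, with bars of 1 standard error from limma and red for an adjusted p under 0.05; (a) and (b) mark the 2 probe sets of RT1-CE7 and of RT1-T24-4. RT1-N2 and RT1-M1-2 stand highest in Long Evans minus Fischer (1.24 and 1.06), RT1-M6-2 lowest in both comparisons of Sprague Dawley (-1.52 and -1.26), and most other members lie near 0.

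Among the class I heavy chain genes, RT1-N2 gave the clearest order of the strains. Its 8 Fischer controls ranged from 6.14 to 6.44 (median 6.30), the 7 Sprague Dawley controls from 6.63 to 6.96 (median 6.74), and the 8 Long Evans controls from 6.99 to 8.06 (median 7.49). The 3 ranges did not overlap. For these and the control ranges that follow, the share of all probe sets without overlap between strains was not counted. RT1-N2 was 2.37-fold higher in Long Evans than in Fischer (1.24 ± 0.12 log2, SE; adjusted p = 6.5e-14). It was 0.47 ± 0.13 higher in Sprague Dawley than in Fischer (adjusted p = 0.0083) and 0.78 ± 0.13 lower in Sprague Dawley than in Long Evans (adjusted p = 1.5e-06). With the Fischer arrays of the upper label numbers alone, the Sprague Dawley difference from Fischer was 0.41 and not called (adjusted p = 0.065).

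RT1-M1-2, a class I gene of the M region, had control levels of 5.50 to 5.998 in Fischer (median 5.82), 6.29 to 7.13 in Long Evans (median 6.85) and 6.43 to 7.04 in Sprague Dawley (median 6.76). Fischer thus lay below both outbred strains without overlap, and the outbred strains overlapped. Against Fischer the difference was 1.06 ± 0.10 in Long Evans (adjusted p = 2.9e-14) and 0.94 ± 0.11 in Sprague Dawley (adjusted p = 3.1e-11). RT1-M1-4, its neighbour in name, was higher in the same comparisons by 0.29 ± 0.08 (adjusted p = 0.0061) and 0.38 ± 0.09 (adjusted p = 0.0014). Neither RT1-M1-4 call held with the Fischer arrays of the lower label numbers alone (0.15 and 0.23, adjusted p = 0.34 and 0.11).

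RT1-M6-2 ran the other way. Its control levels were 8.46 to 8.75 in Fischer (median 8.63), 8.17 to 8.52 in Long Evans (median 8.33) and 6.46 to 7.82 in Sprague Dawley (median 6.87). Every Sprague Dawley control lay below every control of the other strains. The Sprague Dawley level was 2.86-fold below Fischer (-1.52 ± 0.16, adjusted p = 2.8e-12) and 1.26 ± 0.16 log2 below Long Evans (adjusted p = 1.8e-09). Long Evans and Fischer differed by -0.26 ± 0.16 and were not called (adjusted p = 0.23). That SE holds the wider Sprague Dawley spread, as control SDs were 0.11 in Fischer, 0.14 in Long Evans and 0.53 in Sprague Dawley. The missing call is thus no sign of equal levels, and a fit without Sprague Dawley was not run. The SEs of both Sprague Dawley comparisons hold the narrower spread of the other strains, so these SEs and their p-values are too small. RT1-M6-1, which lies beside RT1-M6-2 with no annotated gene between them, was lower in Sprague Dawley too, by 0.73 ± 0.10 against Fischer (adjusted p = 8.3e-09) and 0.41 ± 0.10 against Long Evans (adjusted p = 0.00097), and lower in Long Evans than in Fischer by 0.33 ± 0.09 (adjusted p = 0.0055). The upstream sequences of these genes were 96.0% identical over 252 aligned columns. Probe sequences were not at hand, so whether the 2 signals are independent was not examined.

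Other class I genes differed by less. RT1-S3 had control levels of 7.18 to 7.78 in Long Evans, 7.99 to 8.31 in Fischer and 7.92 to 8.60 in Sprague Dawley. Long Evans lay below both others, by 0.62 ± 0.07 against Fischer (adjusted p = 7.7e-11) and 0.73 ± 0.08 against Sprague Dawley (adjusted p = 4.3e-13). RT1-CE13 followed the same order, from 8.14 to 8.43 in Long Evans, 8.50 to 8.67 in Fischer and 8.62 to 9.06 in Sprague Dawley. Its Long Evans level was 0.34 ± 0.05 below Fischer (adjusted p = 6.7e-07) and 0.52 ± 0.06 below Sprague Dawley (adjusted p = 3.7e-12). RT1-CE16 was lowest in Sprague Dawley, where controls ranged from 7.08 to 7.69, against 7.49 to 8.13 in Fischer and 7.24 to 8.40 in Long Evans. These ranges overlapped, and the differences were -0.45 ± 0.14 against Fischer (adjusted p = 0.021) and -0.57 ± 0.14 against Long Evans (adjusted p = 0.0011). The call against Fischer was lost with the Fischer arrays of the upper label numbers alone (-0.25, adjusted p = 0.28), and without Fischer male control 2 (-0.39, adjusted p = 0.063) or Sprague Dawley male control 2 (-0.37, adjusted p = 0.11). Of the 28 class I RT1 probe sets, the other called members differed by at most 0.36 log2. Among these, RT1-N3 was 0.32 ± 0.07 higher in Long Evans than in Fischer (adjusted p = 0.00066). A probe set of RT1-T24-4 was 0.30 ± 0.11 higher in the same comparison (adjusted p = 0.030). The RT1-T24-4 call was lost without the arrays against their sex label, with the Fischer arrays of the lower label numbers alone, with the microglia score and with a minimum fold of 1.2. The other RT1-T24-4 probe set differed there by 0.09 and was not called (limma, adjusted p = 0.24). In Sprague Dawley against Fischer that other probe set was called (0.28 ± 0.06), while the first was not (0.04 ± 0.11). RT1-S2 was 0.36 ± 0.11 higher in Sprague Dawley than in Fischer (adjusted p = 0.016).

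B2m, the chain common to class I molecules, was nearly level across the strains, with medians of 12.71, 12.63 and 12.67 in Fischer, Long Evans and Sprague Dawley. The largest of its differences was 0.10 ± 0.04 lower in Long Evans than in Fischer (adjusted p = 0.036), which was not called without the arrays against their sex label (0.07 lower, adjusted p = 0.24).

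In peptide supply, the immunoproteasome subunits moved in opposite directions between the strains. Psmb9 was lowest in Long Evans, where controls ranged from 6.86 to 7.27 (median 6.99), against 7.12 to 7.95 in Fischer (median 7.68) and 7.57 to 8.23 in Sprague Dawley (median 7.78). Its Long Evans level was 0.60 ± 0.08 below Fischer (adjusted p = 1.9e-08) and 0.77 ± 0.09 below Sprague Dawley (adjusted p = 2.2e-11), with no overlap between Long Evans and Sprague Dawley. Psmb8 was instead highest in Long Evans, at 6.44 to 6.88 against 6.11 to 6.50 in Fischer and 6.34 to 6.50 in Sprague Dawley. The differences were 0.33 ± 0.05 (adjusted p = 1.6e-07) and 0.24 ± 0.05 (adjusted p = 0.0002). Tap2 was lowest in Long Evans, at 6.84 to 7.12, by 0.26 ± 0.06 against Fischer (adjusted p = 0.0011) and 0.42 ± 0.07 against Sprague Dawley (adjusted p = 4.1e-07). Tap1, the other transporter subunit, had medians of 7.31, 7.38 and 7.42 and was not called, and neither was tapasin (7.99, 7.95 and 7.94).

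Among the class II genes, the invariant chain Cd74 stood apart. Controls ranged from 8.63 to 9.48 in Fischer (median 9.01), from 7.83 to 9.55 in Long Evans (median 9.01) and from 9.56 to 10.21 in Sprague Dawley (median 9.96). All 7 Sprague Dawley controls lay above all controls of the other strains. The level was 0.94 ± 0.20 above Fischer (adjusted p = 0.00035) and 2.08-fold above Long Evans (1.05 ± 0.20, adjusted p = 2.4e-05), while Long Evans and Fischer differed by -0.12 ± 0.19 (adjusted p = 0.70). The chains that travel with Cd74 did not share that difference in size. RT1-Db1 was higher in Sprague Dawley than in Fischer by 0.26 ± 0.08 (adjusted p = 0.012). With the Fischer arrays of the lower label numbers alone it differed by 0.16 (adjusted p = 0.21). RT1-Da was above Fischer by 0.39 ± 0.14 in Sprague Dawley without a call (adjusted p = 0.062). RT1-Da, RT1-Ba and RT1-Ha were not called in any comparison of controls. The beta chain RT1-Bb was lower in Long Evans than in Fischer by 0.40 ± 0.07 (adjusted p = 1.6e-05). The loading genes RT1-DMa, RT1-DMb, RT1-DOa and RT1-DOb were not called, nor was Ciita, with medians of 6.28, 6.28 and 6.36.

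Some markers of the cells that carry Cd74 were also higher in Sprague Dawley than in Long Evans controls, and their part in the Cd74 difference was examined only with a microglia score as covariate. Of 12 microglial probe sets, 6 were higher and 1 was lower (median difference 0.08), and array means were 8.78 to 8.90 in Sprague Dawley and 8.63 to 8.83 in Long Evans. Of 7 border macrophage probe sets, 4 were higher and 0 lower (median 0.27), with array means of 6.63 to 6.84 against 6.30 to 6.68. Against Fischer, 3 microglial probe sets were higher and 4 lower, and 1 border macrophage probe set was higher. More or fewer cells of a type and more or less RNA per cell cannot be told apart in bulk tissue. Over the other settings run, a microglia score as covariate among them, the Cd74 difference from Long Evans kept a value of 0.94 to 1.12 and its call. The difference of Sprague Dawley from Fischer ranged from 0.73 to 1.15 over such settings. It lost its call with a minimum fold of 1.2 (limma, adjusted p = 0.10).

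**Figure D2:**
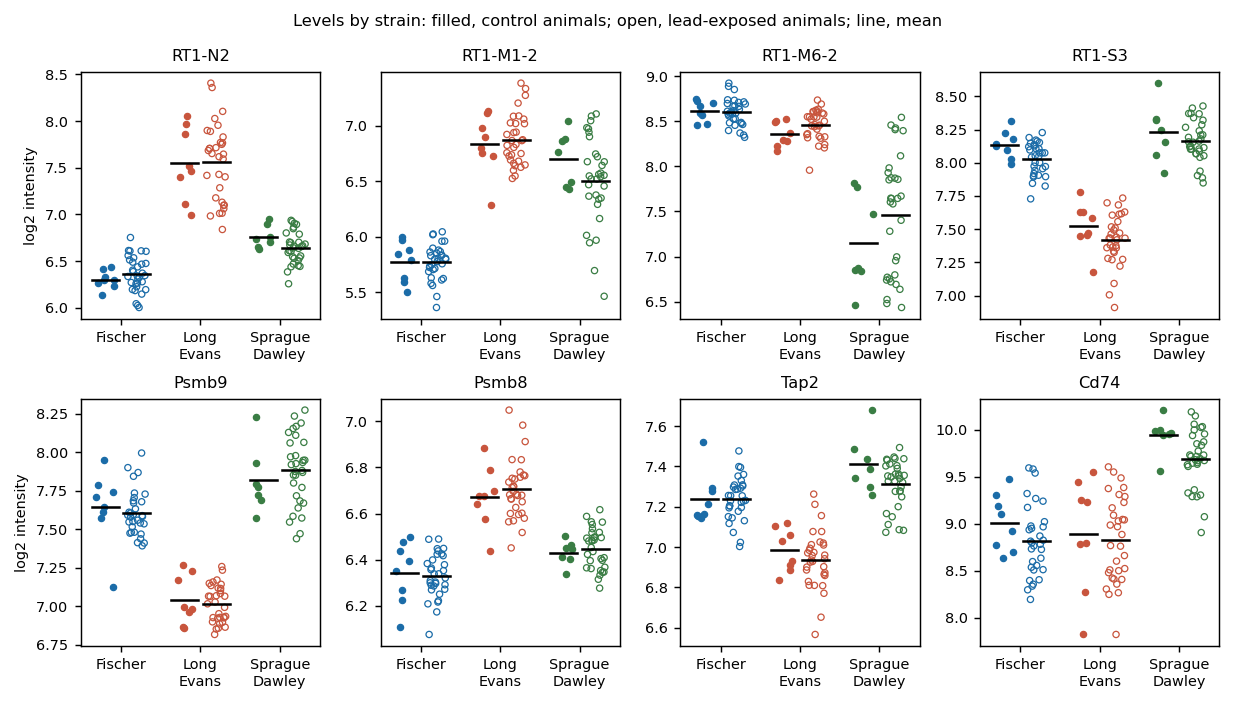
Deposited log2 levels of 8 members in every animal, by strain, with filled points for controls and open points for lead-exposed animals. Lines mark the mean of the controls and the mean of the exposed animals of each strain. Fischer controls lie below the controls of the outbred strains for RT1-M1-2, Sprague Dawley animals spread from 6.44 to 8.54 for RT1-M6-2, and Long Evans animals spread from 6.84 to 8.41 for RT1-N2.

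Over all treatments, with 40, 40 and 39 animals, the same comparisons called 28 of 45 members for Long Evans against Fischer (62.2%, against 61.2% of all probe sets), 30 for Sprague Dawley against Fischer (66.7%, against 40.7%) and 33 for Sprague Dawley against Long Evans (73.3%, against 62.2%). RT1-N2 differed between Long Evans and Fischer by 1.21 ± 0.06, RT1-M6-2 between Sprague Dawley and Fischer by -1.21 ± 0.07, and Cd74 between Sprague Dawley and Long Evans by 0.90 ± 0.09. RT1-M1-2, which was not called between the outbred strains in controls, was 0.32 ± 0.05 lower in Sprague Dawley than in Long Evans (adjusted p = 5.8e-09). The class II chains RT1-Da and RT1-Ba were called higher in Sprague Dawley than in Fischer, by 0.29 ± 0.06 and 0.19 ± 0.06. RT1-Bb was called lower there, by 0.28 ± 0.03. Between Sprague Dawley and Long Evans these class II chains were not called.

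Other genes of antigen presentation were taken from a list of 44 probe sets for 41 symbols outside the members. In Long Evans against Fischer controls, 1 was higher and 11 were lower, in a comparison that called 25.1% of all probe sets. Markers of other cells moved there too, with 4 of 12 microglial, 3 of 7 border macrophage and 4 of 9 blood vessel probe sets lower and 1 microglial probe set higher, and their part was not tested. Those lower included Ifi30, the lysosomal thiol reductase (-0.46 ± 0.06), the interferon gamma receptor chain Ifngr1 (-0.25) and the lysosomal protease Lgmn (-0.22), and the one higher was Mr1, a class I-like molecule that shows small metabolites (0.34). In Sprague Dawley against Fischer controls, 2 were higher, among them cathepsin S, Ctss (0.26), which trims the invariant chain, and 4 were lower, beside 10.5% of all probe sets called. In Sprague Dawley against Long Evans, 9 were higher, led by Ctss (0.39 ± 0.05), and 2 were lower, Mr1 (-0.45 ± 0.12) and the interferon signalling kinase Jak2 (-0.14), beside 24.5% called over the array. Of the 9 blood vessel probe sets 4 were higher in that comparison, and against Fischer 1 was higher and 1 lower. The shares of the list called lay near those of all probe sets. None of the 44 was called in any contrast of lead.

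The study asked whether lead given in either period changed hippocampal expression. Among these genes, 1 difference was called in 24 comparisons of exposed animals with controls of the same strain and sex: RT1-M1-2 was lower in Sprague Dawley males given 750 ppm postnatally. The controls lay at 6.76, 6.88 and 6.86 and the exposed males at 5.95, 5.97, 5.70 and 5.46. The groups did not overlap, and the difference was -1.07 ± 0.18 (limma, adjusted p = 0.017), in a comparison in which 0.0137% of all probe sets were called. Leaving out any of the 3 controls, or exposed male 3 or 4, ended the call (adjusted p from 0.09 to 0.144, difference from -1.10 to -0.97). Without the arrays against their sex label, exposed male 2 among them, the difference was -1.13 (adjusted p = 0.045), and RT1-M6-2, RT1-M6-1 and RT1-N2, described next, differed by 1.59, 0.71 and -0.34.

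In the same males RT1-M6-2 was higher, though not called. The controls lay at 6.85, 6.46 and 6.87 and the exposed males at 8.12, 8.46, 8.39 and 8.42, a difference of 1.62 ± 0.37 (adjusted p = 0.30). RT1-M6-1 lay at 8.42, 8.19 and 8.41 in controls and 8.77, 9.28, 9.18 and 9.20 in exposed males (0.77 ± 0.20, adjusted p = 0.73). RT1-N2 lay at 6.90, 6.63 and 6.96 in controls and 6.38, 6.44, 6.56 and 6.53 in exposed males (-0.35 ± 0.10, adjusted p = 0.73). None of these pairs of groups overlapped. Groups this small can lie apart by chance, and the share of all probe sets without overlap in this comparison was not counted. In 1 fit of all arrays, RT1-M6-2 and RT1-M6-1 were called as well (adjusted p = 1e-05 and 0.0034). That fit pools the spread over strains, and the SD of RT1-M6-2 was 0.648 in Sprague Dawley, 0.14 in Fischer and 0.165 in Long Evans. Its p-values are therefore too small for Sprague Dawley animals and add nothing to the fit within the strain. Over the 45 members, 37 differences were below 0 and the median was -0.12, against -0.01 for all probe sets, and 16 members had an unadjusted p under 0.05, against 1227 of 29214. Choroid plexus markers had a median difference of -0.76 here with 0 of 10 called, and the medians of the microglia, border macrophage, lymphocyte, vessel and neuron lists lay between -0.06 and 0.08. With the choroid plexus score as covariate, RT1-M1-2 differed by -1.02 (adjusted p = 0.018), and with the microglia score by -1.11 (adjusted p = 0.091).

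**Figure D3:**
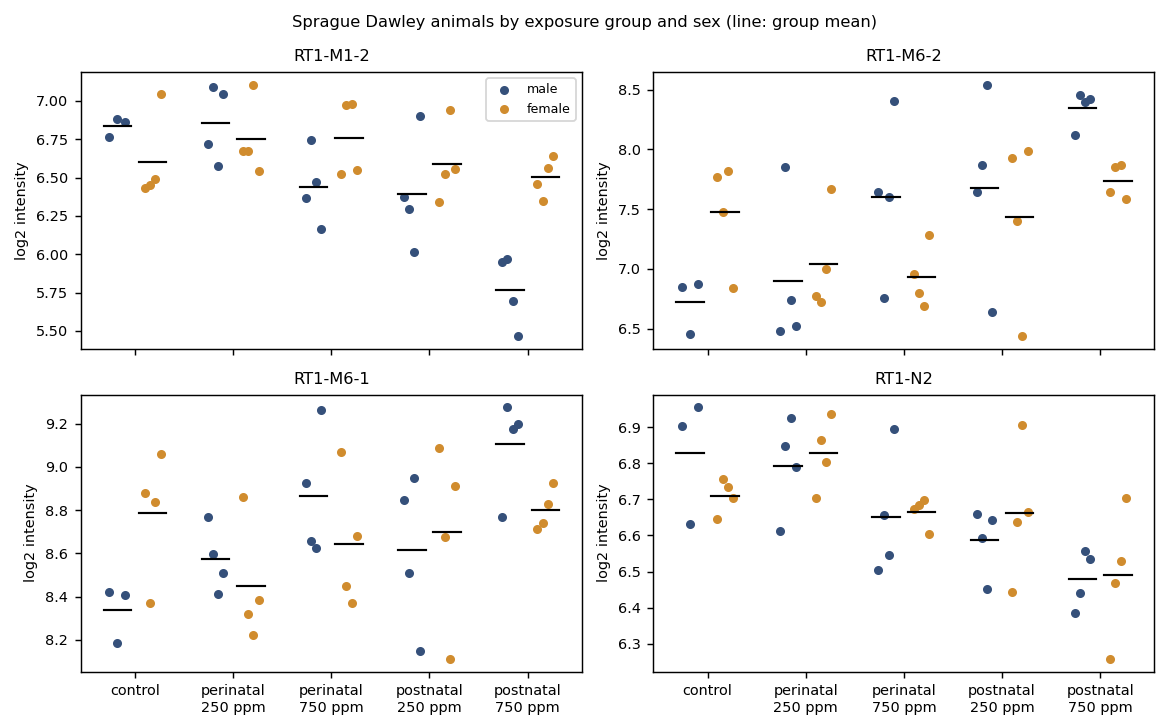
Deposited log2 levels of RT1-M1-2, RT1-M6-2, RT1-M6-1 and RT1-N2 in each Sprague Dawley animal, by exposure group and sex. Males given 750 ppm postnatally lie at 5.46 to 5.97 for RT1-M1-2 and 8.12 to 8.46 for RT1-M6-2, while female groups overlap their controls.

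The same genes in the other Sprague Dawley groups gave smaller differences. In males, RT1-M1-2 differed from controls by 0.02 and -0.40 after perinatal 250 and 750 ppm and by -0.44 after postnatal 250 ppm, and RT1-M6-2 by 0.17, 0.88 and 0.95. In females, RT1-M1-2 differed by 0.15, 0.15, -0.02 and -0.10 (perinatal 250, perinatal 750, postnatal 250 and postnatal 750 ppm), and RT1-M6-2 by -0.43, -0.54, -0.04 and 0.26. These 4 comparisons of a sex shared their controls and are not independent of each other. The sex difference of the mean effect, female minus male, was 0.52 ± 0.20 for RT1-M1-2 (adjusted p = 1; unadjusted p = 0.015) and -1.09 ± 0.41 for RT1-M6-2 (adjusted p = 1; unadjusted p = 0.012), so the difference between the sexes was not called.

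Dose and period contrasts use exposed animals alone. In Sprague Dawley, RT1-M1-2 was at a mean of 6.31 in the postnatal and 6.70 in the perinatal groups (-0.39 ± 0.08, adjusted p = 0.13), RT1-M6-2 differed by 0.68 ± 0.17 (adjusted p = 0.36) and RT1-N2 by -0.18 ± 0.05 (adjusted p = 0.36). In Long Evans, RT1-M1-2 differed by -0.25 ± 0.07 between periods (adjusted p = 0.19). No member was called in a period contrast (unadjusted p under 0.05 for 4, 8 and 5 members in Fischer, Long Evans and Sprague Dawley, with 0.00342%, 0.065% and 0.0411% of all probe sets called). In 1 fit of all arrays, RT1-M1-2 and RT1-M6-2 were called for period in Sprague Dawley (adjusted p = 0.0023 and 6.7e-05). That fit again pooled the spread with strains in which these genes varied less, so these p-values are too small. No member was called for dose either, with 3, 4 and 9 members at an unadjusted p under 0.05 and 0.0719%, 0.0548% and 0.00342% of all probe sets called. For dose in Sprague Dawley, RT1-M1-2 differed by -0.28 ± 0.08 (adjusted p = 1). Without the arrays against their sex label, the Sprague Dawley period differences were -0.42, 0.74 and -0.18 for RT1-M1-2, RT1-M6-2 and RT1-N2, the dose difference of RT1-M1-2 was -0.27, and the sex differences were 0.46 for RT1-M1-2 and -1.01 for RT1-M6-2, with none called.

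The remaining comparisons of lead called no member, and few probe sets of any kind. In Fischer males 0%, 0%, 0% and 0.0137% of all probe sets were called (perinatal 250, perinatal 750, postnatal 250, postnatal 750 ppm), and 1, 4, 2 and 1 members had an unadjusted p under 0.05. In Fischer females the shares were 0.00342%, 0%, 0% and 0%, with 3, 2, 11 and 3 members. The 11 members in females given 250 ppm postnatally compare with 862 of all 29214 probe sets, and 35 of 45 differences there were below 0 (median -0.09). Psmb8 differed by -0.27 ± 0.06 in that group (adjusted p = 0.87) and Cd74 by -0.62 ± 0.24 (adjusted p = 1).

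In Long Evans males 0.0411%, 0.0548%, 0.024% and 0.0479% of all probe sets were called, with 4, 8, 1 and 4 members at an unadjusted p under 0.05. RT1-M1-2 differed there by 0.46 ± 0.14 after perinatal 250 ppm (adjusted p = 0.37). In Long Evans females the shares were 0.0103%, 0.133%, 0.0171% and 0.0103%, with 4, 3, 3 and 1 members. In Sprague Dawley males the shares were 0.0274%, 0.0103% and 0.0137% before postnatal 750 ppm, with 4 members in each, and in Sprague Dawley females 0% in all 4 comparisons, with 1, 2, 1 and 3 members.

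Averaged over the 8 exposed groups of a strain, 0 members were called in Fischer, Long Evans and Sprague Dawley (2, 3 and 4 at an unadjusted p under 0.05), where 0%, 0.212% and 0.0171% of all probe sets were. The sex difference of that mean called 0 members (6, 2 and 4 at an unadjusted p under 0.05) and 0%, 0% and 0.00342% of all probe sets. Differences of the mean effect between strains called 0 members as well, with 1 member for Long Evans against Fischer, 3 for Sprague Dawley against Fischer and 3 for Sprague Dawley against Long Evans at an unadjusted p under 0.05. Of all probe sets 0.13%, 0.0103% and 0.0787% were called in these. The 4 RT1 probe sets with several symbols, which include the classical class I genes RT1-A1, RT1-A2 and RT1-A3, were not called in any contrast of lead.

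Cd74, the invariant chain, was not called after lead in any strain, and its values varied widely within groups. In Sprague Dawley all 8 exposed groups had a mean below their controls, by 0.02 to 0.48, and the mean effect was -0.26 ± 0.12 (adjusted p = 1). The largest of these was in males given 250 ppm perinatally, at 9.73, 8.91, 9.63 and 9.68 against controls at 9.96, 10.0 and 9.95. These groups did not overlap, yet the difference of -0.48 ± 0.22 was not called (adjusted p = 1). In Fischer the mean effect on Cd74 was -0.19 ± 0.14 and in Long Evans -0.07 ± 0.18, with group differences of both signs in each. RT1-N2 differed from controls by at most 0.20 in the Fischer groups (SE 0.12), and by -0.33 to 0.35 in the Long Evans groups (SE 0.25), where its spread between animals was widest.

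**Figure D4:**
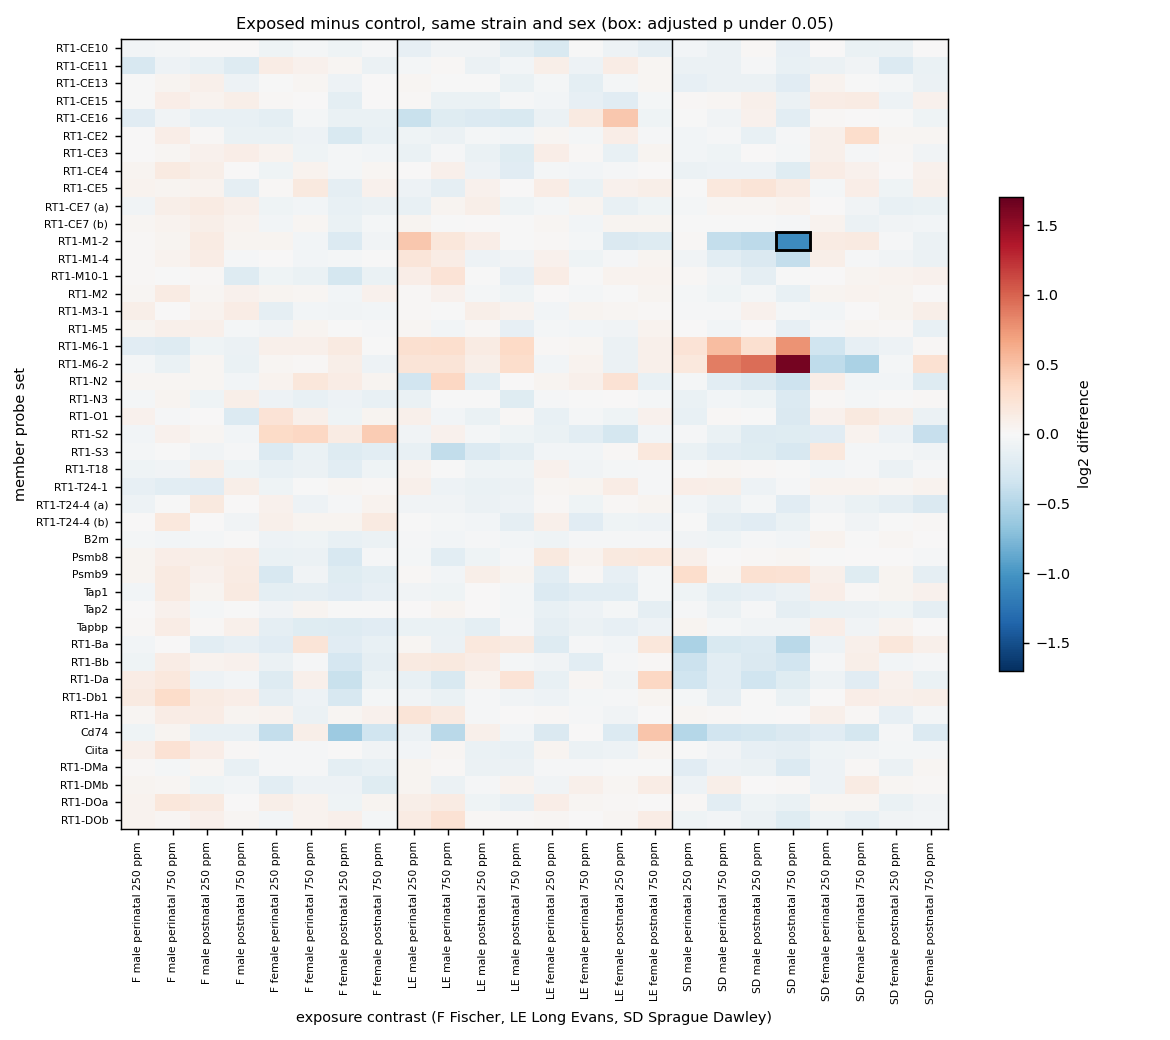
Heat map of the log2 difference from controls of the same strain and sex for 45 probe sets (rows) in the 24 comparisons of lead (columns), with a box at the 1 called value. The boxed cell is RT1-M1-2 in Sprague Dawley males given 750 ppm postnatally (-1.07), and RT1-M6-2 is at 1.62 in the same column.

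Within the outbred strains, a few members varied far more between animals than most probe sets. In Sprague Dawley, RT1-M6-2 ranged from 6.44 to 8.54 over 39 animals (median 7.58, SD 0.648), which placed its SD at percentile 99.85 of all probe sets. In Fischer it ranged from 8.32 to 8.92 (SD 0.14, percentile 41.8) and in Long Evans from 7.96 to 8.73 (SD 0.165, percentile 70.4). RT1-M1-2 ranged from 5.46 to 7.11 in Sprague Dawley (SD 0.377, percentile 98.4), from 5.36 to 6.04 in Fischer (SD 0.16, percentile 57.6) and from 6.29 to 7.38 in Long Evans (SD 0.233, percentile 90.4). In Long Evans the widest were Cd74, from 7.82 to 9.61 (SD 0.477, percentile 99.1), RT1-N2, from 6.84 to 8.41 (SD 0.399, percentile 98.0), and RT1-CE16, from 7.13 to 8.43 (SD 0.389, percentile 97.8). Above percentile 95 lay 1 member in Fischer (Cd74, SD 0.371), 4 in Long Evans and 4 in Sprague Dawley, of 45 each. The measure was chosen after the values were seen and is a description with no test.

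No member formed classes set apart by a wide gap. Where a class was taken to need a gap of at least 0.5 log2 with at least 3 animals on each side, 0 members met it in each strain, against 0.178% of all probe sets in Fischer, 0.103% in Long Evans and 0.0616% in Sprague Dawley. With the median of each set of label numbers subtracted, the Fischer share was 0.0582%, again with 0 members. Narrower gaps did divide the values of some members, and their limits were chosen after the values were seen, so they are described without a test. RT1-M6-2 in Sprague Dawley left gaps of 0.28 between 6.997 and 7.28 and of 0.28 between 8.12 and 8.39, with 16, 18 and 5 animals below, between and above them. RT1-M1-2 ranged from 6.52 to 7.11 in the 16, from 5.95 to 7.09 in the 18 and from 5.46 to 6.16 in the 5. Without the arrays against their sex label the counts were 16, 15 and 3.

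The animals in these ranges were spread unevenly over the groups. All 3 Sprague Dawley male controls lay in the lowest range of RT1-M6-2, and of the 4 males given 750 ppm postnatally 0 lay in the lowest, 1 in the middle and 3 in the highest. Of the female controls 1 lay in the lowest and 3 in the middle range, and all 4 females given 750 ppm postnatally lay in the middle range. The other 2 animals of the highest range were a male given 250 ppm postnatally and a male given 750 ppm perinatally. Exposure group and the animals' RT1 haplotypes, which were not measured, cannot be told apart here.

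In Long Evans, RT1-CE16 left a gap of 0.21 between 7.48 and 7.70, with 12 animals below and 28 above. RT1-N2 ranged from 6.84 to 7.43 in the 12 and from 7.29 to 8.41 in the 28. The 12 came from 8 of the 10 Long Evans groups, with 2 of 4 female controls, 0 of 4 male controls and 3 of 4 females given 750 ppm postnatally among them. Without the arrays against their sex label the counts were 11 and 26.

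Pairs of members were compared across animals after each group's mean was subtracted, with 4 pairs in 3 strains and p-values adjusted over these 12 relations. The permutations moved animals freely between groups and made no allowance for the subtracted means. Adjusted p-values just under 0.05 are therefore somewhat too small. RT1-Da, a class II alpha chain, followed Cd74 in every strain. Pearson's r was 0.86 in Fischer (n = 40), 0.87 in Long Evans (n = 40) and 0.82 in Sprague Dawley (n = 39), and Spearman's rho was 0.84, 0.81 and 0.78. Each had the smallest p that 100000 permutations can give (1e-05, adjusted 4e-05). Without the 2 animals farthest from the median RT1-Da level, r was 0.82, 0.83 and 0.77. Within the arrays of the lower and upper label numbers, r was 0.84 and 0.82 in Fischer, 0.82 and 0.84 in Long Evans, and 0.90 and 0.81 in Sprague Dawley. Without the arrays against their sex label, r was 0.84 in Long Evans and 0.81 in Sprague Dawley.

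The other 3 pairs were weaker. For Psmb8 and Psmb9, r was 0.35, 0.41 and 0.31 in Fischer, Long Evans and Sprague Dawley (permutation test, adjusted p = 0.046, 0.025 and 0.068), and no rho passed (adjusted p from 0.083 to 0.097). Within the lower and upper label numbers r was 0.42 and 0.50 in Fischer, 0.23 and 0.51 in Long Evans, and 0.31 and 0.13 in Sprague Dawley. For Psmb9 and Tap1, which are adjacent genes, r was 0.07, 0.39 and 0.34 (permutation test, adjusted p = 0.80, 0.03 and 0.055), with values of 0.38 in Long Evans and 0.53 in Sprague Dawley when the arrays against their sex label were left out. Within the lower and upper label numbers it was -0.09 and 0.18 in Fischer, 0.51 and 0.54 in Long Evans, and 0.37 and 0.25 in Sprague Dawley. For Cd74 and RT1-DMa, the alpha chain of the DM molecule, r was 0.35, 0.04 and 0.02 (permutation test, adjusted p = 0.046, 0.86 and 0.93). The Fischer value did not hold within label numbers, where r was -0.38 in the lower and -0.40 in the upper.

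Further pairs were picked after their values were seen and are given as descriptions. RT1-N2 and RT1-CE16 had r = 0.86 in Long Evans, against 0.28 in Fischer and 0.19 in Sprague Dawley, although 55 annotated genes lie between them. Within the lower and upper label numbers of Long Evans it was 0.76 and 0.90, and 0.85 when the arrays against their sex label were left out. Within those of Sprague Dawley it was 0.05 and 0.65, and within those of Fischer 0.29 and 0.09. The pair thus also varied together in the upper label numbers of Sprague Dawley. RT1-M1-2 and RT1-M6-2, with 27 genes between them, had r = -0.62 in Sprague Dawley, and 0.05 and -0.16 in Long Evans and Fischer. In Sprague Dawley that value was -0.80 before group means were subtracted, and -0.03 and -0.89 within the arrays of the lower and upper label numbers. It was -0.62 without the arrays against their sex label. RT1-M6-1 and RT1-M6-2 had r of 0.43, 0.65 and 0.52 in Fischer, Long Evans and Sprague Dawley, and the class II chain RT1-Ba followed Cd74 at 0.78, 0.90 and 0.70. Array, dissection and label set are shared by both values of a pair, and their part was not tested.

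**Figure D5:**
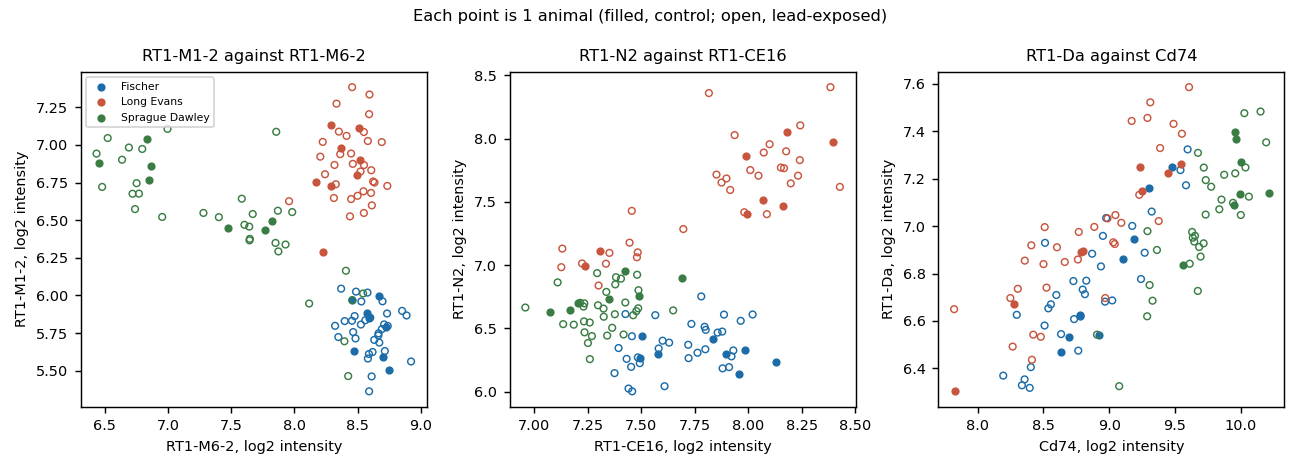
Deposited log2 levels of 3 pairs of members in every animal, by strain: RT1-M1-2 against RT1-M6-2, RT1-N2 against RT1-CE16, and RT1-Da against Cd74. RT1-Da is higher where Cd74 is higher in all 3 strains (r = 0.86, 0.87 and 0.82 after group means were subtracted), RT1-N2 and RT1-CE16 vary together in Long Evans (r = 0.86), and RT1-M1-2 is lower where RT1-M6-2 is higher in Sprague Dawley (r = -0.62).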

How the data were processed

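RNA from the rat hippocampus was hybridised to 1-colour arrays, and the deposited values are log2 intensities per probe set that the authors made with RMA and Partek, per the submitters' processing notes. Their versions, and whether batches were corrected, are not given in the sources used here. RMA pulls the arrays to a common distribution, which can shrink broad shifts. Each array measured 1 animal, and the number of arrays limits the precision. Probe sets were named through the platform's probe table and matched to GRCr8 by gene identifier. Groups were taken from the labels.

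Linear models of the group means were run in limma 3.58.1 under R 4.3.3, with tables read by the package data.table (version 1.17.8). Exposure, dose, period and sex contrasts came from 1 fit per strain and strain contrasts from 1 fit of all 30 groups. Tests were two-sided, adjusted by the Benjamini-Hochberg method over 29214 probe sets, and called at an adjusted p under 0.05. Correlations used 100000 permutations in Python 3.11.15 with numpy 2.4.6 and pandas 2.3.3. Sequences were read with Biopython 1.88 and plots drawn with matplotlib 3.10.9. Shifts of 0.25, 0.5 and 1 log2 were planted in simulated data. For Sprague Dawley males given 750 ppm postnatally, 23.9%, 61.2% and 95.5% of them were called. For Sprague Dawley minus Fischer controls, 28.4%, 86.6% and 98.5% were called. Small effects of lead can thus go uncalled. The fits were repeated with another normalization, array weights, a level filter, a minimum fold, covariates, left-out animals and a block of label numbers. Named were the markers, the 5 called members with the largest differences in each direction per strain contrast of controls, and every member called for lead. Genes beyond these were named after their values were seen. The members and lists were chosen with earlier results of these data known. Replicate numbers in the labels do not pair animals of different groups, so the label numbers, split within each group into the 2 lowest and the 2 highest (1 and 2 in the group of 3), served as the block.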

Additional observations from a re-analysis of the deposited data

Results flagged for a closer look

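In 6 of 116 groups of 4 animals, over RT1-N2, RT1-M1-2, RT1-M6-2 and Cd74, 1 animal stood far from the other 3 by Dixon's criterion. Chance gives about 1 flag in 20 groups, or 5.8 here.

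RT1-N2 was at 7.77 in 1 Long Evans female given 750 ppm postnatally, with the others at 7.01 to 7.10. It was at 7.06 in 1 Long Evans male given 750 ppm postnatally, with the others at 7.90 to 8.03. RT1-M1-2 was at 7.04 in 1 Sprague Dawley female control, with the others at 6.43 to 6.49. Cd74 was at 9.31 in 1 Long Evans female given 250 ppm postnatally (others 8.27 to 8.42), at 7.82 in 1 Long Evans male given 750 ppm postnatally (others 9.17 to 9.39) and at 8.91 in 1 Sprague Dawley male given 250 ppm perinatally (others 9.63 to 9.73).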

How the results depend on the processing

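The called difference of RT1-M1-2 in Sprague Dawley males given 750 ppm postnatally rests on few animals and on the setting. The count of members called in the 24 lead comparisons was 1, and became 3 in 1 fit of all arrays, 2 with array weights (RT1-M1-2 and RT1-M6-2), and 0 with a further quantile normalization, a microglia score as covariate, the filter at the 40th percentile of level (which removes RT1-M1-2) or a minimum fold of 1.2. The fit of all arrays pools the spread with strains in which these genes varied less, so its added calls carry little weight. Leaving out 1 animal at a time gave 0 to 1 calls. The RT1-M1-2 difference stayed between -1.13 and -0.97 throughout. With the block of label numbers it was -1.06 (adjusted p = 0.027). All 42 strain calls of members in controls, named here or not, were kept under that block, so the block ended no call among these. The period count of 0 became 2 in 1 fit of all arrays and 0 to 1 with an animal left out (RT1-M1-2, without Sprague Dawley male postnatal 250 ppm 4, adjusted p = 0.021, or female postnatal 250 ppm 3, adjusted p = 0.048). Counts for dose, mean lead effect, sex difference and strain difference of lead were 0 under every alternative run.

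With a minimum fold of 1.2, the strain counts in controls were 4 (Long Evans minus Fischer), 3 (Sprague Dawley minus Fischer) and 6 (Sprague Dawley minus Long Evans), and over all treatments 6, 4 and 9. With the level filter, which tests 27 members, Sprague Dawley minus Fischer over all treatments gave 18. Leaving out 1 animal gave 14 to 18, 10 to 14 and 11 to 15 in controls. The minimum fold kept 13 of the 42 member calls in controls, array weights 39 and the control arrays alone 38. Without the arrays against their sex label 35 of 42 were kept, and with the Fischer arrays of the lower or the upper label numbers alone, added after the data were seen, 20 and 25 of 29. No called difference of a named member reversed. The r of Cd74 and RT1-DMa in Fischer became -0.35 within label numbers, and in Long Evans -0.018 with deposited values and -0.037 within label numbers. The r of Psmb8 and Psmb9 in Long Evans was 0.19 with deposited values, and that of Psmb9 and Tap1 in Fischer 0.25 with deposited values and -0.016 within label numbers. That of Psmb9 and Tap1 in Sprague Dawley was 0.53 without the arrays against their sex label, added after the data were seen. The cause was not tested. Signal over background was not examined for single probes, and 18 of 45 members lie at or below the 40th percentile of level.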
